A study of Mus musculus with 12 samples.

Results

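Leydig cells lie between the seminiferous tubules of the testis and make its androgens. The 10 genes described here are *Lhcgr*, *Star*, *Cyp11a1*, *Hsd3b1*, *Hsd3b6*, *Cyp17a1*, *Hsd17b3*, *Srd5a1*, *Akr1c14* and *Insl3*, chosen by name from the 20620 genes of the count table for their known part in Leydig cell hormone synthesis. All 10 were in the table, and all 10 passed the filter on low counts in RNA and in ribosome footprints. They were measured in whole testes of C57BL/6 mice at postnatal day 16, heterozygous (*Mael*+/-) or homozygous (*Mael*-/-) for a mutation of *Mael*, with 3 extracts per genotype and 1 RNA and 1 footprint library from each, 12 libraries in all. *Mael* encodes Maelstrom, a germ cell protein of the pathway that silences transposons with piRNAs, and the *Mael*+/- testes, which carry 1 mutant allele, are the controls. The study profiled ribosomes to ask whether the rise of the retrotransposon LINE-1 in mutant germ cells disturbs translation. Leydig cells are somatic cells of the same extracts.

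Steroid synthesis starts when luteinizing hormone binds its receptor on the Leydig cell and raises cyclic AMP. Cholesterol is then carried to the inner mitochondrial membrane by the StAR protein, cut to pregnenolone by the enzyme encoded by *Cyp11a1*, and turned into testosterone by 3β-hydroxysteroid dehydrogenase, by CYP17A1 and by HSD17B3. In the immature testis, 5α-reductase and 3α-hydroxysteroid dehydrogenase (*Srd5a1* and *Akr1c14*) convert much of the androgen onward to androstanediol. *Insl3* encodes a peptide hormone of Leydig cells that guides descent of the testis. In rodents a fetal population of Leydig cells is replaced by an adult one in the weeks after birth, so that several of these genes change with age over this period.

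A pair of the genes are close copies, and their sequences bear on what can be counted. *Hsd3b1* (GRCm38, chr3:98842356-98859794, minus strand) and *Hsd3b6* (chr3:98805504-98814443, minus strand) each have 1122 coding bases in RefSeq, of which 90% are the same. The first 60 coding bases of each follow, from the start codon, with the 7 positions that differ in capitals.
Hsd3b1: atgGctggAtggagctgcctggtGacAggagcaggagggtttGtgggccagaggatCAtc
Hsd3b6: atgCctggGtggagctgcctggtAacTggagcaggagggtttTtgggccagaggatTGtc
The longest run without any difference was 72 bases. It is shown here with 3 bases on each side (coding positions 247 to 324) and the differing bases in capitals.
Hsd3b1: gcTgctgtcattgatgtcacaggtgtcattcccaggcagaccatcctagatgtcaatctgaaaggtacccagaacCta
Hsd3b6: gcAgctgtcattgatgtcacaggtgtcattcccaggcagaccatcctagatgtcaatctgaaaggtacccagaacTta
Of all windows of 30 bases (about the length of a footprint) in the coding sequence, 37.5% in *Hsd3b6* and 19.1% in *Hsd3b1* occurred elsewhere in the genome. Of windows of 75 bases (the read length of the RNA libraries) in the whole transcript, it was 6.6% and 0.0561%. Counts of these genes, and of footprints above all, are therefore uncertain in how they divide between copies.

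*Insl3* poses another difficulty, that of overlap. It lies at chr8:71689252-71690577 on the plus strand in 2 exons. Its second exon (chr8:71690172-71690577) holds 406 of its 587 exonic bases, or 69.2%, and is annotated in full as the last exon of the neighbouring gene *Jak3* on the same strand, so that RNA reads lying wholly within it cannot be assigned to 1 of the 2 genes. No coding base is shared, since the *Jak3* coding sequence ends in an earlier exon. The first 60 coding bases of *Insl3* lie in its own first exon and are shown with the start codon in capitals.
Insl3: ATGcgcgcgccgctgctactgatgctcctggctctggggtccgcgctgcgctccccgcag
Among the other genes, *Cyp17a1* (chr19:46667165-46673000, minus strand) shares 92 of 1841 exonic bases with the antisense gene *Gm41857*, which the table does not list. The remaining genes share no exonic base with another gene.

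Depth and genotype were checked first. Gene counts came to 13697267 to 27462358 per RNA library and 7609932 to 13233565 per footprint library. CPM stands for counts per 1e6, which are gene counts scaled to the same library total, with TMM factors between libraries. *Mael* RNA stood at 219, 158 and 144 CPM in *Mael*+/- replicates 1 to 3, and at 0.0728, 0.0991 and 0 CPM in *Mael*-/- replicates 1 to 3. *Mael* footprints stood at 137, 85.4 and 84.2 CPM in *Mael*+/- and at 0, 0 and 0.831 CPM in *Mael*-/- replicates 1 to 3. Libraries of both assays thus matched their genotype labels. The heterozygous extract 1 stood apart in germ cell genes. The summed level of 8 pachytene spermatocyte genes was 528 CPM in its RNA and 209 to 250 CPM in the other 5 RNA libraries, and 640 CPM against 193 to 221 CPM in footprints.

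Between genotypes, none of the 10 genes passed an adjusted p of 0.05, whether in RNA, footprints or translation efficiency (edgeR quasi-likelihood tests, adjusted over all genes). Of all genes tested, 0.116% passed in RNA (17 of 14685), 0.0593% (8 of 13500) did so in footprints and 0% (0 of 13448) in translation efficiency, which is the change of footprints beyond that of RNA. At an unadjusted p under 0.05, before any correction, there was 1 of the 10 genes in RNA (*Insl3*), where 5.40% of all genes were under it, and 1 in footprints (*Hsd17b3*), where 4.33% were. In translation efficiency it was 0 of the 10 and 54 of all genes, or 1 (*Insl3*) and 282 (2.10%) with each extract as a term in the fit. DESeq2 called 0 of the 10 in each comparison as well, and 0 of all genes in translation efficiency. The median log2 fold change of the 10 genes (*Mael*-/- over *Mael*+/-) was 0.12 for RNA, 0.01 for footprints and -0.15 for translation efficiency, beside medians over all genes of -0.0013, -0.0085 and -0.0040. With single libraries left out these medians ran from 0.015 to 0.32 in RNA, from -0.11 to 0.36 in footprints and from -0.37 to 0.13 for translation efficiency. For translation efficiency the other library of the same extract was kept in these omissions. With each extract as a term and no library left out, the median for translation efficiency was -0.13. In whole tissue, a change in the number of Leydig cells and a change in RNA per cell cannot be told apart.

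**Figure D1:**
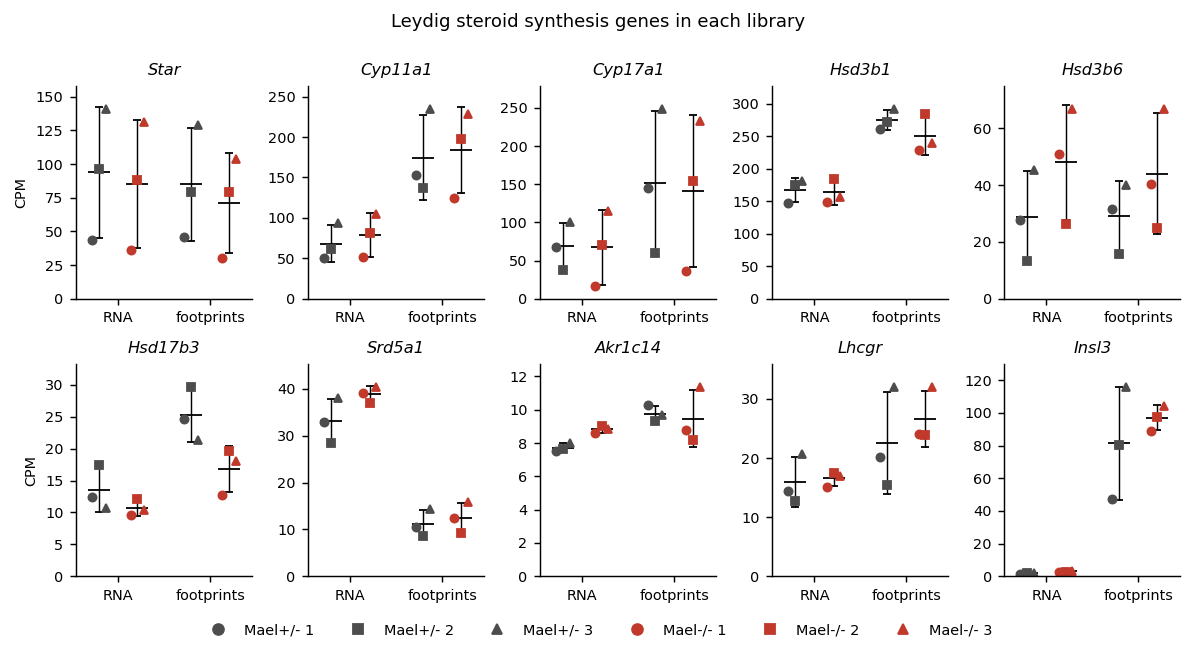
CPM of each of the 10 genes (vertical axis, linear and starting at 0) in RNA and footprint libraries of *Mael*+/- (grey) and *Mael*-/- (red) testes, with circles, squares and triangles for replicates 1, 2 and 3 and the mean ± SD in black (n = 3). The points of the genotypes overlap for most genes, while replicates of *Star*, *Cyp17a1* and *Hsd3b6* lie several fold apart.

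The hormone receptor comes first. *Lhcgr* (chr17:88716384-88792059, minus strand) encodes the receptor for luteinizing hormone. Its RNA was at 14.4, 12.8 and 20.7 CPM in *Mael*+/- and at 15.1, 17.5 and 17.0 CPM in *Mael*-/- testes. The highest and the lowest library were both heterozygous, and the groups overlapped. In footprints it stood at 20.1, 15.4 and 32.1 CPM against 23.99, 23.8 and 32.0 CPM, also with overlap. The log2 fold change was 0.05 in RNA (SE 0.18, edgeR adjusted p = 0.991) and 0.22 in footprints (SE 0.23, edgeR adjusted p = 0.999).

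*Star* (chr8:25808474-25815982, plus strand) encodes the protein that delivers cholesterol into the mitochondrion, the acutely regulated step of steroid synthesis. Its RNA was at 43.8, 96.7 and 140.9 CPM in heterozygous replicates 1 to 3 and at 36.4, 88.0 and 131.5 CPM in the *Mael*-/- replicates. Both genotypes thus held 1 low, 1 middle and 1 high extract. Footprints gave nearly the same picture, with 45.9, 79.4 and 129.3 CPM against 30.4, 79.1 and 103.6 CPM. The difference between genotypes was small beside this spread, with a log2 fold change of -0.13 in RNA (95% interval -1.13 to 0.88) and -0.27 in footprints (-1.18 to 0.64).

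*Cyp11a1* (chr9:57998024-58027031, plus strand) encodes the side-chain cleavage enzyme that makes pregnenolone, the committed step of the pathway. It was measured at 50.3, 61.0 and 93.4 CPM in *Mael*+/- RNA and at 51.5, 80.8 and 105.4 CPM in *Mael*-/- RNA. Its footprints reached 152.7, 136.6 and 234.8 CPM against 124.7, 198.1 and 228.8 CPM. Replicate 3 was the highest library of each genotype in both assays, and the genotypes overlapped. The log2 fold change was 0.22 in RNA (SE 0.27) and 0.07 in footprints (SE 0.23), with edgeR adjusted p of 0.982 and 0.999.

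The 3β-hydroxysteroid dehydrogenases move the pathway from pregnenolone to progesterone and its relatives, and *Hsd3b6* is known as the form of adult Leydig cells. *Hsd3b1* was steady, at 147, 175.5 and 181 CPM in heterozygous RNA and 149.6, 185 and 156 CPM in *Mael*-/- RNA. Its footprints lay at 261, 272 and 292 CPM against 229, 285 and 239 CPM. The largest library exceeded the smallest by 1.26-fold in RNA and 1.27-fold in footprints. With a log2 fold change of -0.04 (95% interval -0.29 to 0.21) in RNA and -0.13 (-0.37 to 0.10) in footprints, *Hsd3b1* had the narrowest interval of the 10 genes in each assay.

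*Hsd3b6* behaved otherwise. Its RNA was at 27.6, 13.3 and 45.4 CPM in *Mael*+/- and at 50.9, 26.4 and 66.8 CPM in *Mael*-/- testes, and its footprints were at 31.5, 15.6 and 40.2 CPM against 40.6, 24.7 and 66.8 CPM. In each genotype replicate 2 was lowest and replicate 3 highest, and the groups overlapped. The log2 fold change was 0.74 in RNA (SE 0.41, edgeR adjusted p = 0.972) and 0.58 in footprints (SE 0.35, edgeR adjusted p = 0.999), not distinguishable from 0 at this spread. Leaving out single libraries moved it between 0.40 (without *Mael*+/- replicate 2) and 1.236 (without *Mael*+/- replicate 3) in RNA, and between 0.16 (without *Mael*-/- replicate 3) and 0.88 (without *Mael*+/- replicate 3) in footprints. Relative to *Hsd3b1*, which shares part of its sequence, its counts per exonic or coding base were 0.194, 0.0781 and 0.258 in heterozygous RNA and 0.350, 0.147 and 0.440 in *Mael*-/- RNA, again overlapping.

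*Cyp17a1* encodes the 17α-hydroxylase and 17,20-lyase that gives the pathway its androgen branch. It was the most variable of the 10 genes. Heterozygous RNA held 67.3, 38.0 and 100.3 CPM, and *Mael*-/- RNA held 17.0, 70.2 and 114.5 CPM. Footprints stood at 144.9, 59.9 and 248.6 CPM against 35.7, 153.9 and 233.0 CPM. The extremes of RNA were therefore both *Mael*-/- libraries, 6.72-fold apart, and footprints spanned 6.96-fold. No direction could be read between genotypes, with a log2 fold change of -0.01 in RNA (95% interval -1.19 to 1.17) and -0.12 in footprints (-1.38 to 1.15).

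*Hsd17b3* (chr13:64058274-64089262, minus strand) encodes the enzyme that reduces androstenedione to testosterone. In RNA it was at 12.4, 17.5 and 10.7 CPM in *Mael*+/- and at 9.61, 12.1 and 10.4 CPM in *Mael*-/- testes, with overlap. In footprints it was at 24.7, 29.7 and 21.4 CPM against 12.8, 19.7 and 18.03 CPM, so that all 3 *Mael*-/- libraries lay below all 3 heterozygous ones. Its log2 fold change was -0.59 in footprints (SE 0.18, edgeR adjusted p = 0.959) and -0.34 in RNA (SE 0.19, edgeR adjusted p = 0.9752). Neither passed the test. Among the 10 genes it was the only one whose footprints did not overlap between genotypes, and 9.09% of all genes tested in footprints did not overlap either.

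The last enzymes turn androgens over. *Srd5a1* (chr13:69573449-69611485, minus strand), which encodes 5α-reductase, was at 32.8, 28.4 and 38.0 CPM in *Mael*+/- RNA and 39.2, 36.9 and 40.5 CPM in *Mael*-/- RNA. Its footprints were fewer, at 10.5, 8.54 and 14.4 CPM against 12.3, 9.18 and 15.8 CPM, with overlap in both assays. *Akr1c14* (chr13:4048991-4090560, plus strand), which encodes 3α-hydroxysteroid dehydrogenase, was at 7.54, 7.64 and 8.01 CPM in heterozygous RNA and 8.59, 9.02 and 8.86 CPM in *Mael*-/- RNA, without overlap. This shift was small, a log2 difference of 0.19 (SE 0.13, edgeR adjusted p = 0.982). In its footprints, at 10.3, 9.31 and 9.66 CPM against 8.78, 8.18 and 11.4 CPM, the genotypes overlapped and the log2 fold change was -0.05 (SE 0.17).

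*Insl3* gave few RNA counts and many footprints. Its RNA amounted to 25, 54 and 54 counts in the heterozygous libraries and to 37, 57 and 89 in the *Mael*-/- libraries, or 1.08, 1.98 and 2.04 CPM against 2.69, 2.83 and 3.25 CPM. All *Mael*-/- libraries lay above all heterozygous ones. The log2 fold change of 0.78 (SE 0.28) had an edgeR unadjusted p of 0.018 and an adjusted p of 0.852, and so did not pass. Together with *Akr1c14*, it made 2 of the 10 genes without overlap in RNA, where 10.3% of all genes did not overlap. Its footprints, at 47.3, 80.4 and 116.1 CPM against 89.2, 97.3 and 104.3 CPM, overlapped, and differed by a log2 value of 0.25 (SE 0.24, edgeR adjusted p = 0.999). *Jak3*, with which it shares an exon, was at 2.56 to 3.47 CPM in RNA.

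**Figure D2:**
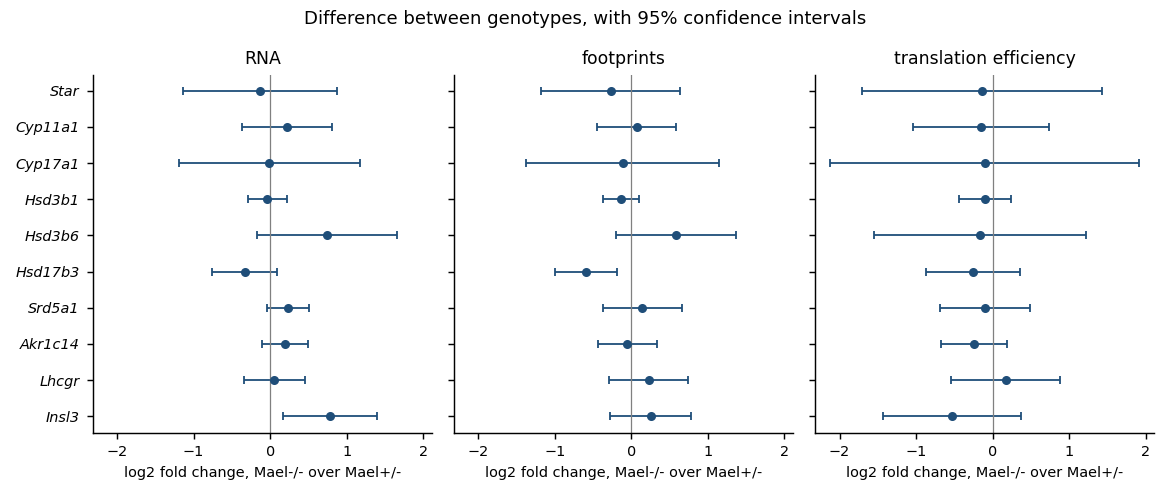
Log2 fold change of *Mael*-/- over *Mael*+/- (horizontal axis, the same scale in each panel) for the 10 genes in RNA, footprints and translation efficiency, as points with 95% confidence intervals from edgeR. Intervals include 0 for all genes except *Insl3* in RNA (0.16 to 1.40) and *Hsd17b3* in footprints (-0.99 to -0.19), neither of which passed after adjustment over all genes.

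Translation efficiency did not pass the test for any of the 10 genes, of which 9 had a log2 change below 0 and *Lhcgr* one of 0.17 (SE 0.33). The values ran from -0.53 for *Insl3* (95% interval -1.43 to 0.37) to that of *Lhcgr*. The intervals were wide for the genes that varied between extracts, as in *Cyp17a1* (-0.10, -2.12 to 1.91), and narrow for *Hsd3b1* (-0.10, -0.44 to 0.24). With each extract as a term in the fit the intervals narrowed, to -0.24 to 0.29 for *Cyp17a1* (log2 change 0.02) and to -0.89 to -0.14 for *Insl3* (-0.52, SE 0.18), whose unadjusted edgeR p was 0.0090 and adjusted p 0.9998.

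Several of the genes varied widely over the 6 extracts of both genotypes. Over the 6 RNA libraries the SD of log2 CPM was 1.02 for *Cyp17a1*, 0.84 for *Hsd3b6* and 0.81 for *Star*, above 98.7%, 97.97% and 97.8% of all genes, beside 0.16 for the median gene. *Insl3* (0.56) and *Cyp11a1* (0.45) followed. At the other end, *Hsd3b1* (0.15) and *Akr1c14* (0.11) varied less than the median gene. For the most variable genes, footprints differed between extracts much as RNA did. The log2 ratio of footprints to RNA within an extract had an SD of 0.22 for *Cyp17a1*, 0.21 for *Hsd3b6* and 0.14 for *Star*, against 0.15 for the median gene. The ratio was thus less steady than in the median gene for *Cyp17a1* and *Hsd3b6*. The same held for *Hsd17b3* (0.22), *Akr1c14* (0.22), *Srd5a1* (0.24), *Lhcgr* (0.23), *Insl3* (0.31) and, slightly, *Cyp11a1* (0.17). In *Akr1c14* and *Srd5a1* the SD of the ratio exceeded that of RNA (0.11 and 0.19). The footprint counts of these genes were 72 to 116 and 66 to 163 per library, and the part of counting noise was not tested. Both assays of an extract share its tissue, so these values describe 6 extracts.

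**Figure D3:**
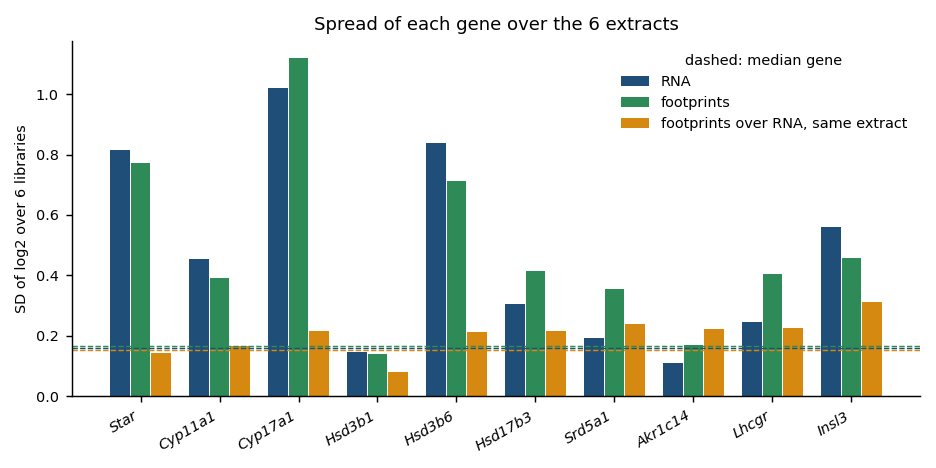
SD over the 6 extracts (vertical axis, log2 units, starting at 0) of RNA, of footprints and of the ratio of footprints to RNA for each gene, with the median of all genes as dashed lines. *Star*, *Cyp17a1* and *Hsd3b6* have tall bars in RNA and footprints and shorter ones in the ratio. In the ratio, *Cyp17a1* and *Hsd3b6* still lie above the dashed line. *Hsd3b1* and *Akr1c14* stay near or below the median gene in both assays.

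The genes did not move as a block. With each gene centred within its assay, the Pearson correlation with the mean of the other 9 genes over the 12 libraries was 0.96 for *Cyp11a1*, 0.74 for *Lhcgr*, 0.73 for *Star* and 0.71 for *Cyp17a1*. It was 0.35 for *Hsd3b6*, 0.32 for *Hsd3b1* and -0.23 for *Hsd17b3*. The 12 points are 6 pairs of libraries from the same extract, so these values are descriptive. The mean of the 10 genes was highest in replicate 3 of both genotypes in both assays (0.28 and 0.39 on the log2 scale in RNA, 0.41 and 0.41 in footprints). It was lowest in heterozygous replicate 1 (-0.29) and *Mael*-/- replicate 1 (-0.28) in RNA, and in *Mael*-/- replicate 1 (-0.39) in footprints. *Star* and *Cyp17a1* disagreed in the heterozygous extracts: replicate 2 held more *Star* and less *Cyp17a1* than replicate 1.

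Of 12527 genes with at least 20 counts on average in both assays, those with the pattern closest to the mean of the 10 were *Fdx1* (Pearson r = 0.968), *Mrap* (0.959), *Csrp2* (0.954), *Slc25a5* (0.951) and *Adamts15* (0.949), over the same 12 libraries. *Fdx1* encodes ferredoxin, which hands electrons to the mitochondrial P450 enzyme of *Cyp11a1*. Its RNA stood at 48.7, 48.3 and 71.1 CPM in *Mael*+/- and 37.5, 60.8 and 84.3 CPM in *Mael*-/- testes, and *Mael*-/- replicate 3 was the highest of all. *Mrap* encodes an accessory protein of the corticotropin receptor. Its RNA was at 3.64, 3.00 and 9.21 CPM against 3.06, 5.01 and 10.7 CPM, with replicate 3 again highest in each genotype. *Slc25a5* encodes a mitochondrial carrier of ADP and ATP and varied little, with an SD of 0.15 over the RNA libraries.

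**Figure D4:**
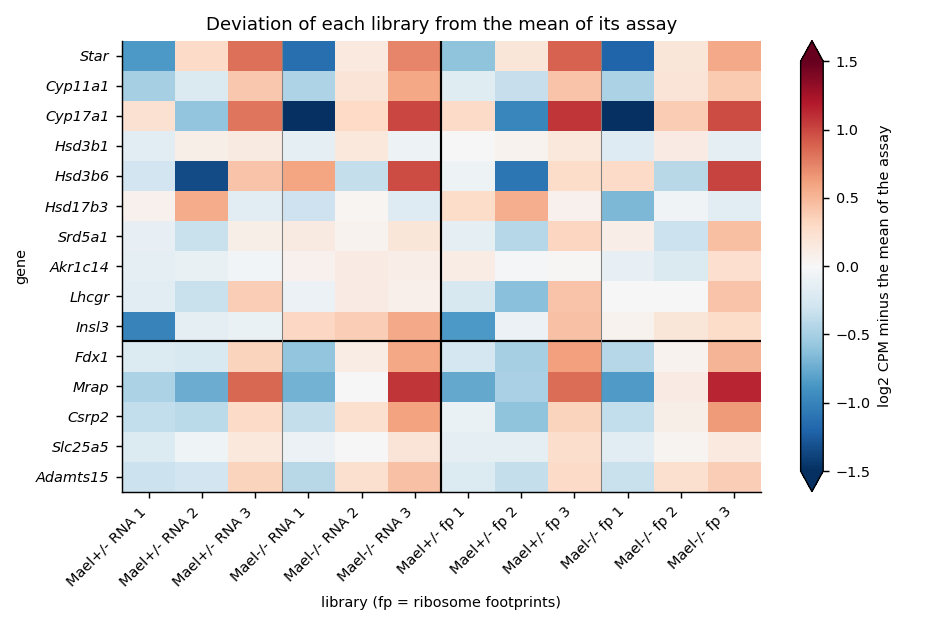
Log2 CPM of each gene minus its mean over the 6 libraries of the assay (colour, blue below and red above, clipped at ±1.5) for the 10 genes and, under the line, the 5 genes most like their mean, in 6 RNA and 6 footprint (fp) libraries. Replicate 3 of both genotypes is red for *Star*, *Cyp11a1*, *Cyp17a1* and the 5 similar genes, and the row of *Hsd17b3* differs from them.

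Levels of different genes were compared per kilobase, of exons for RNA and of coding sequence for footprints. In RNA *Hsd3b1* led at 89.4 ± 9.0 CPM per kilobase (SD over 6 libraries), above every other gene in each library. It was followed by *Cyp17a1* (36.9 ± 19.9), *Cyp11a1* (23.5 ± 7.3), *Star* (22.1 ± 10.7), *Hsd3b6* (21.3 ± 10.8), *Srd5a1* (13.5 ± 1.7) and *Hsd17b3* (9.44 ± 2.21). Within this run of 6 genes, each overlapped in range with the next. The level of *Cyp11a1* depends on the transcript taken. It was 26.4 ± 8.2 by the longest one, and shorter ones were not tested. The lowest were *Insl3* (3.94 ± 1.31, over a length that includes the shared exon), *Akr1c14* (3.39 ± 0.26) and *Lhcgr* (2.37 ± 0.41), and the ranges of *Akr1c14* and *Lhcgr* did not overlap.

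In footprints the order differed. *Insl3* (241 ± 65 CPM per kilobase) and *Hsd3b1* (235 ± 22) came first with overlapping ranges. Below them were *Cyp11a1* (113 ± 30), *Cyp17a1* (95.8 ± 57.01), *Star* (91.2 ± 42.5), *Hsd3b6* (32.6 ± 15.7), *Hsd17b3* (22.9 ± 6.3), *Srd5a1* (15.4 ± 3.8), *Lhcgr* (11.7 ± 3.1) and *Akr1c14* (9.88 ± 1.17). Only *Hsd3b1* and *Cyp11a1* among these neighbours had ranges that did not overlap.

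The footprint level over the RNA level, both per kilobase, was set against the median of 13394 genes in the same extract. A value above 0 on this log2 scale means more footprints per RNA than the median gene. It was above 0 in all 6 extracts for 8 of the 10 genes and below 0 in all 6 for *Srd5a1*. For each of these 9 genes the exact two-sided sign-flip permutation test over the 6 extracts gave p = 0.0312, the smallest it can give, and 0.0347 after adjustment over the 10 genes. Of the 13394 genes, 73.3% lay on 1 side of the median in all 6 extracts, and with any extract left out the smallest p is 0.0625. *Cyp11a1* stood at 1.40 ± 0.17 (SD, n = 6, 2.64-fold), *Lhcgr* at 1.39 ± 0.23 and *Star* at 1.18 ± 0.14, above 93.8%, 93.6% and 91.0% of genes. The RNA length of *Lhcgr* and *Star* was 6866 and 4046 bases, whether all exons or the longest transcript were taken. For *Cyp11a1* it was 3137 bases over all exons and 2790 in the longest transcript, with which its ratio was 1.26. A still shorter coding transcript of *Cyp11a1* has 1773 windows of 75 bases, and would give a lower ratio. The ratios of *Cyp11a1*, *Lhcgr* and *Star* with shorter transcripts were not tested, so their rank among genes is uncertain. *Akr1c14* (0.66), *Hsd3b1* (0.51), *Cyp17a1* (0.44) and *Hsd17b3* (0.38) were closer to the median gene. *Srd5a1*, at -0.72 ± 0.24, was above 12.8% of genes only.

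*Hsd3b6* was at -0.23 ± 0.21, with values between -0.53 and 0.03 in single extracts, and did not pass (exact permutation p = 0.0938). This value depends on its repeated windows. With *Hsd3b1*, *Hsd3b6* and the other genes scaled to the windows found nowhere else in the genome, it was 0.35 (exact permutation p = 0.0312). *Insl3* was at 5.07 ± 0.31 (33.6-fold), above 99.97% of genes. Of its 513 RNA windows of 75 bases, 107 (20.9%) lie within the first exon, and with RNA scaled to those alone the value was 2.81 ± 0.31 (7.002-fold), still above 99.4% of genes. How reads over an exon of 2 genes were counted is not given in the sources used here, so the size of this ratio is uncertain. Both scalings were chosen after the data had been seen.

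**Figure D5:**
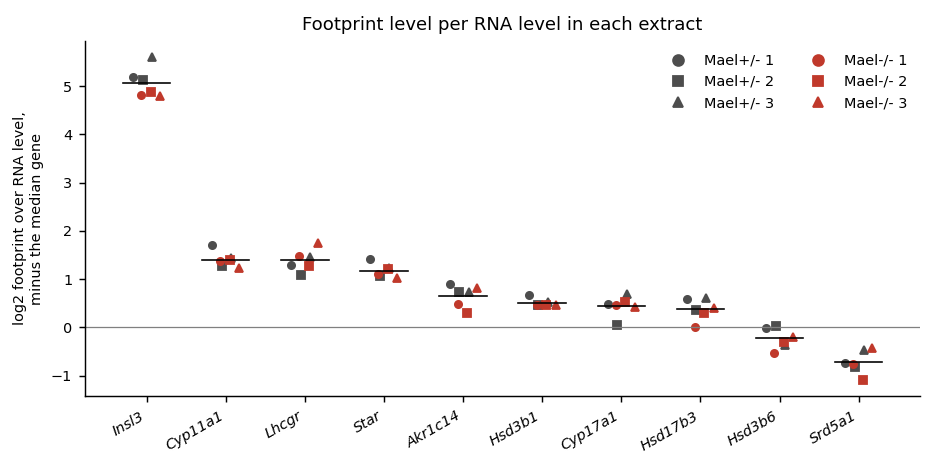
Footprint level over RNA level per kilobase (vertical axis, log2, minus the median of 13394 genes in the same extract) for the 10 genes in 3 *Mael*+/- (grey) and 3 *Mael*-/- (red) extracts, with the mean as a line. *Insl3* lies near 5 on the full exon length, most genes lie between 0 and 2, and *Srd5a1* lies below 0 in each extract.

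The wider pathway was followed through 13 further lists of 103 genes in all. None passed the test in any comparison (edgeR, 91 genes tested in RNA and 87 in each of the other comparisons, with DESeq2 calling 0 as well). At an unadjusted p under 0.05 there were 10 in RNA and 4 in footprints, with 0 in translation efficiency, beside the 5.40%, 4.33% and 0.402% of all genes. Of the 15 genes of cholesterol supply, 0 were called, and the median log2 fold change was -0.02 in RNA and 0.02 in footprints. *Scarb1*, the receptor that takes up cholesterol from high-density lipoprotein, was at 204 to 291 CPM with a log2 fold change of 0.08. *Soat1*, which esterifies cholesterol for storage, was at 213 to 359 CPM with 0.22. *Hmgcs1*, of cholesterol synthesis, was at 240 to 276 CPM with -0.02.

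The 4 redox partners of the P450 enzymes gave 0 calls and a median of 0.15 in RNA and 0.15 in footprints. *Cyb5*, the table's older symbol for the cytochrome b5 gene *Cyb5a*, was at 104 to 145 CPM. *Por*, the reductase that serves CYP17A1, was at 93.7 to 112 CPM, and *Fdxr*, the ferredoxin reductase, at 81.3 to 129 CPM. Among 13 other steroid enzymes, 7 could be tested in RNA with 0 called and a median of 0.06. *Hsd17b12* (70.4 to 83.2 CPM), *Srd5a3* (14.6 to 21.5 CPM) and *Hsd3b7* (10.96 to 16.8 CPM) were the highest per kilobase. *Sult1e1*, a sulfotransferase of mature Leydig cells, had at most 3 RNA counts in a library, *Hsd17b6* at most 1, and *Hsd3b3* and *Akr1c18* had 0.

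Of the 12 regulators of Leydig cells, 0 were called, with a median of 0.01 in RNA. *Nr5a1* encodes steroidogenic factor 1, a transcription factor of the steroidogenic enzymes. It was at 200 to 243 CPM in RNA, with a log2 difference of 0.05 (SE 0.10, edgeR adjusted p = 0.984), and is also expressed by Sertoli cells. *Nr0b1*, which opposes it, was at 101 to 133 CPM (0.22), and *Gata4* at 126 to 145 CPM (-0.02). *Nr4a1*, an early response gene named after its values were seen, was at 49.3 CPM in heterozygous replicate 2 and at 8.81 to 20.3 CPM in the other 5 RNA libraries. Partners of the hormone axis (6 genes) and other genes enriched in Leydig cells (5) also gave 0 calls, with RNA medians of 0.13 and 0.20. *Amhr2* was at 592 to 866 CPM, *Dhh* at 159 to 211 CPM and *Pdgfa* at 16.9 to 21.7 CPM. *Inha*, at 476 to 776 CPM, is shared with Sertoli cells, *Vcam1* was at 67.4 to 127 CPM and *Dlk1* at 28.9 to 60.1 CPM.

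Steroid genes are shared with the adrenal cortex. Of the 6 adrenal genes listed, some were at or near 0: *Cyp11b2* had 0 RNA counts in each library, *Cyp11b1* at most 4 and *Mc2r* at most 2. The others were higher, with *Cyp21a1* at 0.474 to 1.06 CPM, *Akr1b7* at 1.95 to 5.85 CPM and *Mrap* at 3.00 to 10.7 CPM. The pattern of *Mrap* was close to the mean of the 10 genes, as given above, though not all of the 10 followed that mean.

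Markers of the other cells of the testis were read in the same way. All 8 macrophage genes had a log2 fold change above 0 in RNA (median 0.32, 0 called), and their sum was 179, 163 and 268 CPM in *Mael*+/- and 258, 252 and 254.8 CPM in *Mael*-/- RNA. *Lyz2*, *C1qa* and *Mrc1* were at 33.8 to 54.6, 20.0 to 35.0 and 55.8 to 103 CPM. The sum of the 10 steroid genes was 404, 453 and 641 CPM against 380, 529 and 655 CPM. Heterozygous replicate 3 was the highest of its group in both sums. The order of the other replicates differed: in *Mael*-/- RNA, replicate 1 was highest in the macrophage sum (258 CPM) and lowest in the steroid sum (380 CPM). All 6 peritubular myoid genes (median 0.20), all 6 stromal genes (0.11) and all 6 endothelial genes (0.13) were above 0 as well, with 0 called in each list. The median over all genes was -0.0013, and the genes of a list share the same 6 extracts. Summed myoid RNA was 889 to 933 CPM in *Mael*+/- and 1004 to 1056 CPM in *Mael*-/- testes, without overlap, while the stromal and endothelial sums overlapped. In footprints the myoid sums overlapped, and 1 endothelial gene was below 0. *Acta2* and *Myh11* of myoid cells reached 588 and 377 CPM and *Tagln* 70.4 CPM, *Col1a2*, *Dcn* and *Tcf21* of the stroma 802, 257 and 58.3 CPM, and *Cdh5*, *Pecam1* and *Emcn* of endothelium 36.8, 18.6 and 5.10 CPM. The 8 Sertoli cell genes summed to 1599 to 1811 CPM with a median of -0.01, among them *Cldn11* (602 to 753 CPM), *Wt1* (226 to 244 CPM) and *Rhox5* (44.9 to 73.8 CPM).

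All 6 pachytene genes tested had a log2 fold change below 0 in RNA (median -1.21, 0 called), and the sum of all 8 of the list was 528, 209 and 230 CPM in *Mael*+/- against 232, 249.6 and 209 CPM in *Mael*-/- RNA. In the heterozygous extract 1, *Hist1h1t* was at 143 CPM, *Mybl1* at 125 CPM and *Tbpl1* at 94.1 CPM, each the highest of the 6 RNA libraries. The part of these marker levels in the values of the steroid genes was not tested. Without the heterozygous RNA library 1, 0 of the 10 genes were called in RNA and their median log2 fold change was 0.02, and without the heterozygous footprint library 1 it was -0.03 in footprints, again with 0 called.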

How the data were processed

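Testes lysates (cycloheximide) gave total RNA libraries (stranded, depleted of ribosomal RNA) and, after micrococcal nuclease, footprint libraries. The authors removed ribosomal reads with Bowtie 1.2.2, aligned to mm10 with STAR 2.6.0c and counted with featureCounts (Subread 1.6.4), over mRNAs for RNA and coding sequence for footprints. Strand setting, annotation and treatment of multiply mapped reads are not given in the sources used here. The deposited table holds raw counts without normalization. The authors' DESeq2 fold changes and p-values were not used. Repeat copies, 7.65 to 13.56% of counts per library, stayed out of tests.

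Genes were tested with edgeR 4.0.16 (R 4.3.3): TMM within assay, filterByExpr, quasi-likelihood F-tests and Benjamini-Hochberg adjustment at 0.05. For translation efficiency the interaction term of assay with genotype was tested in 1 fit of 12 libraries. DESeq2 1.42.0 and other settings were alternatives. The tests were also tried on simulated counts, drawn independently for RNA and footprints. Those counts lack the variation that both assays of an extract share, and no result here rests on them. Lengths and sequences are from RefSeq (GRCm38), in which 19295 of 20620 symbols matched directly, 1191 by an older symbol and 134 not at all. Ratios had 0.5 counts added. Per the methods, RNA and footprints of 1 replicate came from the same extract. Their deviations correlated at 0.78, 0.65 and 0.69 (*Mael*+/-) and 0.25, 0.24 and 0.24 (*Mael*-/-) over 12536 genes, so a fit with the extract as a term is given beside the main, unpaired one.

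Nothing in the labels says that replicates came from separate animals, so p-values measure the spread between these samples. Named genes were the 10 genes, *Mael*, *Nr5a1*, any called gene of a list, up to 3 genes per list with the highest RNA level per kilobase and the 5 with the most similar pattern. *Jak3*, *Nr4a1* and the enzymes and adrenal genes at or near 0 counts fall outside this rule and were named after their values were seen. The 10 genes and all lists were chosen with earlier results of these data known.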

Additional observations from a re-analysis of the deposited data

How the results depend on the processing

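None of the 10 genes was called in footprints or in translation efficiency under any alternative (DESeq2, median-of-ratios size factors, no filter on low counts, the replicate block, each library left out in turn, heterozygous extract 1 left out of both assays), and in RNA 1 was called under 1 of them. That one was the replicate block between genotypes, which called *Hsd3b6* in RNA (log2 fold change 0.80, SE 0.12, edgeR adjusted p = 0.013; 0.74 without the block and an adjusted p of 0.147 with the block in footprints). The sources used here do not say whether equal numbers pair the genotypes, and correlations of library deviations cannot decide it. For equal numbers these were 0.26, 0.01 and 0.16 in RNA and 0.06, 0.23 and 0.05 in footprints, all positive. Unequal numbers gave mixed signs, with extremes of -0.36 and 0.33 for RNA, and of -0.23 and 0.18 for footprints. Not every library correlated best with its own number. The *Hsd3b6* call thus depends on a pairing that was not established. The block raised the number of genes called in RNA to 50 (17 without it) and that in footprints to 23 (8 without it). With the extract as a block in translation efficiency 0 genes were called, as without, and *Cyp17a1* turned from -0.10 to 0.024. The pairing of extracts changed no other call.

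DESeq2 called 58 genes in RNA and 21 in footprints. With single libraries left out, 2 (without *Mael*-/- RNA replicate 1) to 64 (without *Mael*+/- RNA replicate 1) genes were called in RNA and 2 (without *Mael*+/- footprint replicate 3) to 17 (without *Mael*+/- footprint replicate 1) in footprints. The other omissions that moved the count by over 1.5 times left 7 or 8 genes in RNA and 3 or 4 in footprints. The median over the 10 genes ran from 0.015 to 0.32 in RNA, from -0.11 to 0.36 in footprints (highest without *Mael*+/- replicate 3) and from -0.37 to 0.13 in translation efficiency, where it was above 0 without *Mael*+/- footprint replicate 3 (0.13) or *Mael*-/- RNA replicate 3 (0.022). These ranges of the log2 fold change over omitted libraries include a change of sign, with no call in any. In RNA they were -0.59 to 0.29 (*Star*), -0.043 to 0.51 (*Cyp11a1*), -0.64 to 0.43 (*Cyp17a1*), -0.14 to 0.021 (*Hsd3b1*) and -0.086 to 0.29 (*Lhcgr*). In footprints they were -0.64 to 0.17 (*Star*), -0.12 to 0.34 (*Cyp11a1*), -0.69 to 0.45 (*Cyp17a1*), -0.055 to 0.37 (*Srd5a1*), -0.20 to 0.039 (*Akr1c14*) and -0.029 to 0.61 (*Insl3*). In translation efficiency they were -0.55 to 0.31 (*Star*), -0.44 to 0.12 (*Cyp11a1*), -0.67 to 0.52 (*Cyp17a1*), -0.19 to 0.0012 (*Hsd3b1*), -0.65 to 0.18 (*Hsd3b6*), -0.29 to 0.14 (*Srd5a1*) and -0.058 to 0.52 (*Lhcgr*). In translation efficiency each single omission kept the other library of the same extract, so the 2 assays then differed in their extracts. Without heterozygous extract 1 in both assays the median over the 10 genes was -0.13. The cause of the sign changes was not tested. Without 1 extract, no ratio of footprints to RNA can pass, since the smallest exact p is then 0.0625. The ratio of footprints to RNA reversed only for *Hsd3b6* (0.35 with repeated windows left out for the 10 genes alone). Level per kilobase by the longest transcript moved no gene by more than 1 SD. Depth limits *Insl3* RNA most, at 25 to 89 counts. No outlier test was run within the groups of 3.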
